A study of Mus musculus with 12 samples.

Results

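The brown fat thermogenic genes examined here were 10 genes, Ucp1, Cidea, Dio2, Elovl3, Prdm16, Ppargc1a, Ppara, Adrb3, Fabp3 and Zic1. They were chosen by name, and all 10 were found among the 55414 genes counted. Expression was measured by poly(A) RNA sequencing of the inferior vena cava (IVC) of wild-type C57BL/6J mice, 10 weeks old at purchase, on postoperative day 7. The AVF group had an infrarenal aortocaval fistula, made by puncturing the aorta into the IVC with a needle, which sends arterial flow into the vein. The Sham group underwent the same operation without the puncture. Each group held 6 mice, 3 female and 3 male, with 1 library per mouse, and libraries are named here by group, sex and number. Whole pieces of vein were collected, and no label or method states how much perivascular fat stayed on them.

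Brown adipocytes, and the beige adipocytes that resemble them, burn fatty acids to make heat. Noradrenaline from sympathetic nerves acts on beta-adrenergic receptors, cyclic AMP rises, and lipolysis and the transcription of thermogenic genes follow. Uncoupling protein 1, the product of Ucp1, then lets protons leak back across the inner mitochondrial membrane. Fat around vessels can have brown or white character, depending on the vessel.

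Total counts ranged from 15177881 to 22717423 per library. Several libraries stood apart. AVF female 1 had 46.0% of its counts in ribosomal RNA genes, against 2.39% to 12.6% in the other libraries. Summed hepatocyte genes reached 2902 and 8339 normalized CPM (counts scaled to the size of the library) in AVF male 2 and AVF female 2, and were at most 17.3 elsewhere. Summed cardiac muscle genes were at 1203 CPM in Sham female 1 and at most 112 elsewhere, and summed skeletal muscle genes were at 1752 CPM in Sham female 3 and at most 93.3 elsewhere. Summed fibroblast genes were at 22440 to 32880 CPM in AVF and 9596 to 19330 in sham, with no overlap. The collagen genes Col1a1 (5392 to 10531 CPM in AVF) and Col3a1 (12996 to 17891) weighed most in this sum. Lum and Pi16 were also higher in AVF without overlap. Pdgfra (156 to 243 CPM in AVF, 143 to 268 in sham) and Dcn (2718 to 3210 in AVF, 1989 to 3890 in sham) overlapped, so the sum does not measure fibroblast number. Summed endothelial genes, the labelled vessel's own lining, overlapped at 1917 to 2574 CPM in AVF and 1698 to 2817 in sham. In bulk tissue, fewer cells of a type and less RNA per cell cannot be told apart.

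The AVF group had less of 3 of these genes than the sham group. Cidea, Fabp3 and Ppara were called lower, by which is meant an edgeR quasi-likelihood adjusted p under 0.05 and at least a 2-fold difference. Over all 15907 genes tested, 1.41% were called lower and 3.37% were called higher. Prdm16 also passed the adjusted p, with a smaller difference, so that 4 members passed on p alone, where 5.14% of all tested genes did so in the lower direction. No member was called higher, by edgeR or by DESeq2. Of the 10 genes, 9 passed the filter on low counts (over 1 CPM in at least 2 libraries), and all 9 had negative log2 fold changes, with a median of -1.45 against -0.01 over all genes tested. DESeq2 and edgeR's exact test each called 5 members lower, adding Ucp1 and Ppargc1a, and they also called more genes lower in all (2.56% and 2.27% of those tested).

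**Figure D1:**
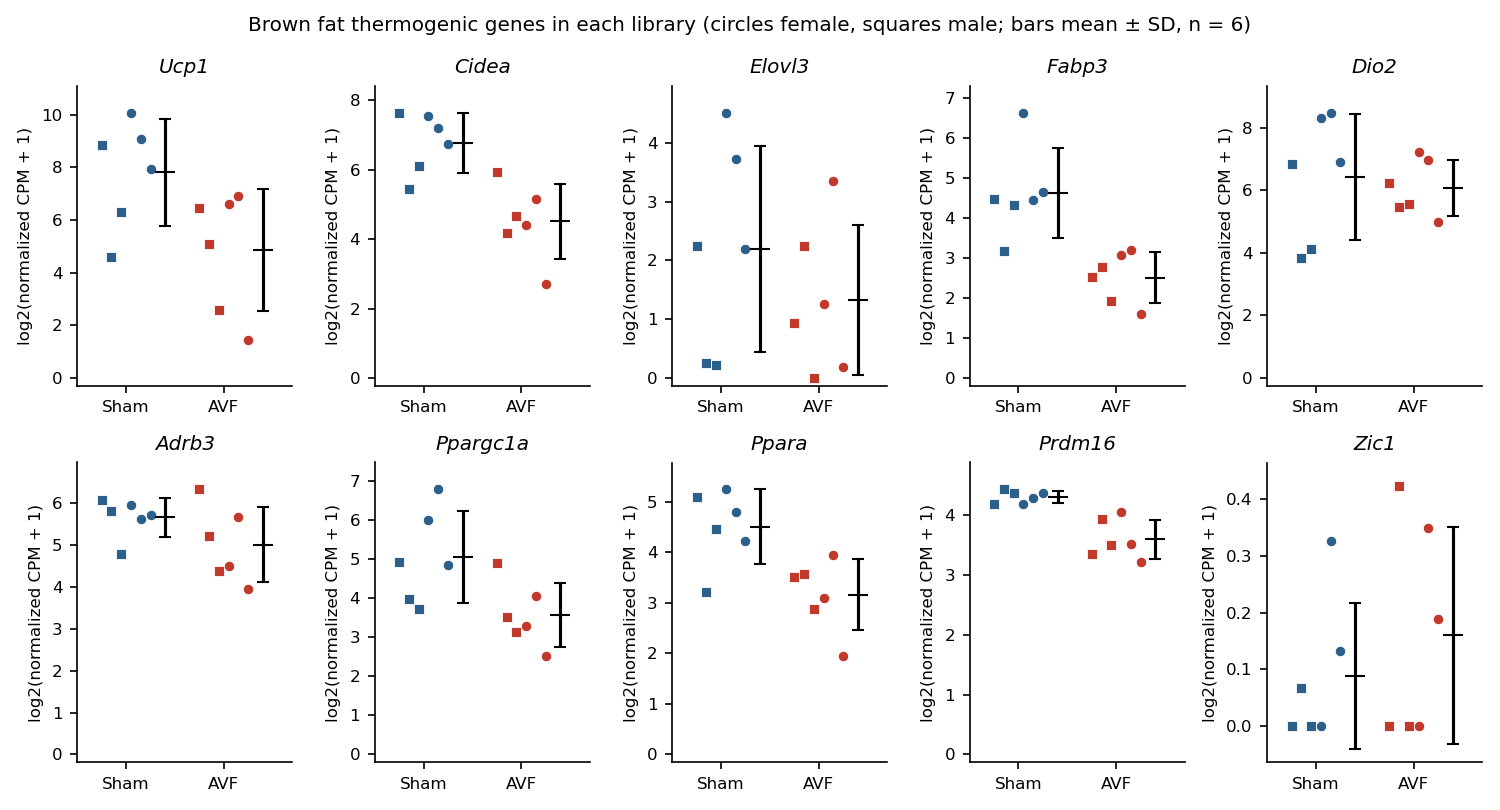
Level of each of the 10 genes in each library, as log2(normalized CPM + 1), with circles for female and squares for male mice and bars for mean ± SD of 6 libraries. The groups separate fully for Prdm16, and Ucp1, Dio2 and Elovl3 spread widely within a group.

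Ucp1 was the gene with the widest spread. Its normalized CPM ran from 22.9 in Sham male 2 through a median of 354 to 1088 in Sham female 1. In AVF it ran from 1.69 in AVF female 3 through a median of 60.4 to 121 in AVF female 2. The groups overlapped because Sham male 2 and Sham male 3 (78.0 CPM) lay within the AVF range, while the other 4 sham libraries were above every AVF library. The SD of log2(CPM + 1) was 2.32 in AVF and 2.03 in sham, above that of 99.3% and 99.8% of all tested genes in the same group. The log2 fold change was -2.83 ± 1.01 (SE), and it missed the threshold (edgeR adjusted p = 0.079). The counts behind these values ran from 36 in AVF female 3 to 20845 in Sham female 1, so that counting error was small beside the spread between mice.

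Among the genes that carry the adrenergic and thyroid signals, neither Adrb3 nor Dio2 passed the test. Adrb3 encodes the beta-3 adrenergic receptor, the main receptor of rodent fat for noradrenaline. It was at 14.6 to 80.3 CPM in AVF (median 28.9) and 26.7 to 66.3 in sham (median 53.5), and the highest library of all was AVF male 1. Its log2 fold change was -0.48 ± 0.37 (edgeR adjusted p = 0.413). Dio2 encodes the deiodinase that turns thyroxine into active thyroid hormone inside the cell. It ranged from 30.7 to 148 CPM in AVF (median 60.2) and from 13.4 to 356 in sham (median 116). The sham libraries lay on both sides of the AVF libraries, since Sham male 2 and Sham male 3 were the lowest of all 12, and Sham female 1 and Sham female 2 were the highest. Dio2 had a log2 fold change of -1.01 ± 0.72 (edgeR adjusted p = 0.365).

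The transcription regulators differed in how tightly they were set. Prdm16, a co-regulator that directs precursors towards a brown fate, had the smallest spread and the cleanest separation. It was at 17.1 to 20.6 CPM in sham (mean 18.8 ± 1.4 SD, n = 6) and at 8.29 to 15.5 in AVF (mean 11.3 ± 2.9, n = 6). Every AVF library was below every sham library, a pattern that 1.51% of all tested genes showed in this direction, and Prdm16 was the only one of the 10 genes with it. Its log2 fold change was -0.73 ± 0.15 (edgeR adjusted p = 0.0081), a difference under 2-fold.

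Ppara encodes a nuclear receptor that switches on fatty acid oxidation. It was at 2.86 to 14.5 CPM in AVF (median 9.00) and 8.30 to 37.0 in sham (median 23.9). Of the sham libraries, 5 were above every AVF library, and Sham male 2 was not. The highest AVF values were in AVF female 2 (14.5 CPM) and AVF male 2 (10.8 CPM), the libraries with hepatocyte genes. Ppara had a log2 fold change of -1.45 ± 0.39 (edgeR adjusted p = 0.029), and it stayed called without those libraries. This call was lost when AVF male 3, Sham male 1, Sham female 1 or Sham female 2 was left out, with log2 fold changes of -1.38, -1.34, -1.29 and -1.42 (edgeR adjusted p = 0.060, 0.062, 0.054 and 0.058).

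Ppargc1a encodes a coactivator of mitochondrial biogenesis. It was at 4.73 to 28.7 CPM in AVF (median 9.62) and at 12.3 to 110 in sham (median 28.7). AVF male 1 reached the level of the sham libraries, and Sham female 2 and Sham female 1 (63.0 CPM) were far above the rest. Ppargc1a had a log2 fold change of -1.76 ± 0.57, which missed the threshold (edgeR adjusted p = 0.057). It passed when AVF male 1, Sham male 2 or Sham male 3 was left out (edgeR adjusted p = 0.030, 0.046 and 0.039).

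Zic1, a transcription factor gene used as a marker of classical interscapular brown fat, was nearly absent. It had 0 counts in 6 of the 12 libraries and at most 7 counts in any library. The limit that a count of 0 allows, taken as 3 counts, lay between 0.127 and 0.323 CPM. Zic1 did not pass the filter and was not tested between AVF and sham.

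The other effector genes handle lipid. Cidea, a lipid droplet protein enriched in brown adipocytes, was at 5.58 to 59.8 CPM in AVF (median 22.5) and 42.8 to 200 in sham (median 125). Of the AVF libraries, 5 were below every sham library, and AVF male 1 overlapped the lowest sham library. Cidea had a log2 fold change of -2.21 ± 0.51 (edgeR adjusted p = 0.016). Cidea stayed called when any 1 of the 12 libraries was left out (edgeR adjusted p from 0.0077 to 0.039). Its call was lost without AVF male 2 and AVF female 2 together, the 2 libraries with hepatocyte genes that the study also set apart, at a log2 fold change of -2.18 (edgeR adjusted p = 0.052). It was also lost without Sham female 1 and Sham female 3 together, at -2.07 (edgeR adjusted p = 0.057).

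Fabp3, a fatty acid carrier of brown fat that is also abundant in heart and skeletal muscle, was at 2.02 to 8.11 CPM in AVF (median 5.26) and 8.01 to 98.2 in sham (median 21.0). Only AVF female 2 overlapped the lowest sham library, Sham male 2. Fabp3 had a log2 fold change of -2.65 ± 0.57 (edgeR adjusted p = 0.012). The sham library with 98.2 CPM was Sham female 1, the one with cardiac genes, where Myh6, the atrial and cardiac myosin heavy chain, was at 408 CPM and at most 0.469 in any other library. Without this library the log2 fold change was -1.87 (edgeR adjusted p = 0.010), and also without Sham female 3 it was -1.74 (edgeR adjusted p = 0.028).

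Elovl3, an enzyme that elongates fatty acids in cold-exposed brown fat, was low and erratic. It was at 0 to 9.26 CPM in AVF (median 1.16) and 0.169 to 21.9 in sham (median 3.66). Sham male 2 and Sham male 3 were near 0 and Sham female 1 and Sham female 2 (12.3 CPM) were highest. The log2 fold change was -1.43 ± 1.18 (edgeR adjusted p = 0.439), and it moved to -0.63 without Sham female 1 and to -3.72 without the 2 AVF libraries with hepatocyte genes, with no call either way.

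**Figure D2:**
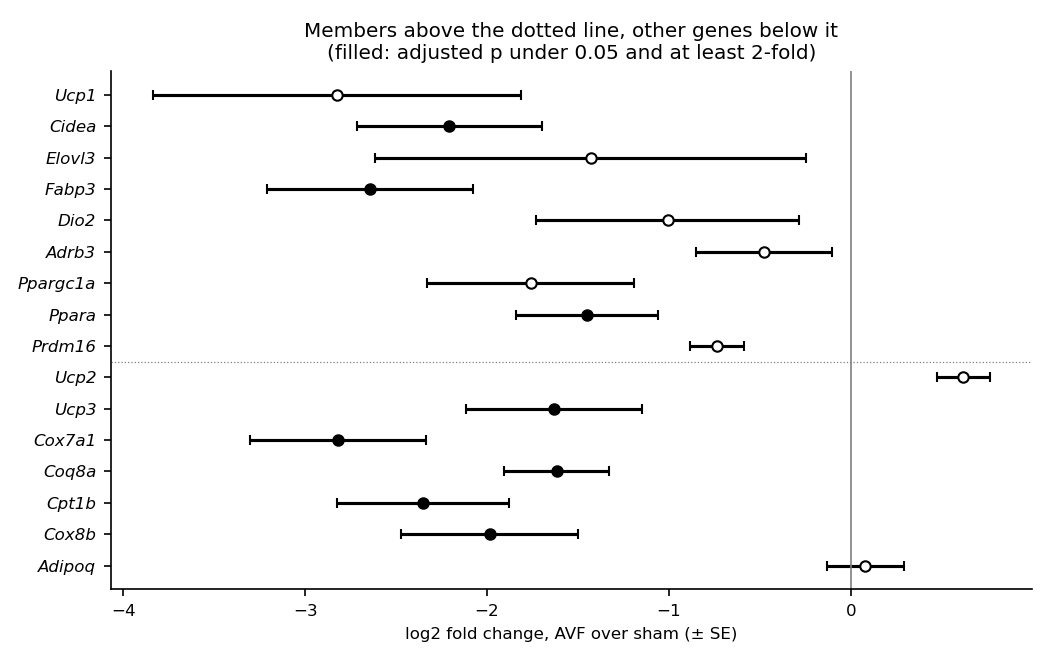
Log2 fold change of AVF over sham ± SE from the edgeR fit on 6 against 6 libraries, for the 9 thermogenic genes tested and, below the dotted line, other genes of brown or white adipocytes. Filled points were called. Ucp1 has nearly the same fold change as Fabp3, with an SE of 1.01 against 0.57.

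Compared per kilobase of the canonical transcript, the order of the sham medians was Ucp1 at 211 CPM per kilobase, Cidea at 99.0, Fabp3 at 25.5, Dio2 at 18.0, Adrb3 at 12.5, Ppara at 6.73, Ppargc1a at 4.43, Prdm16 at 2.14, Elovl3 at 1.93 and Zic1 at 0.0043. The ranges of neighbours in this order overlapped, except those of Elovl3 and Zic1. In AVF, Ucp1 (36.0 CPM per kilobase) and Cidea (17.7) again had the highest medians, and Fabp3 stood in place 5, after Dio2 (9.38) and Adrb3 (6.78), at 6.40. All neighbours overlapped in AVF.

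The same libraries were high or low for most members. Of the 9 genes other than Zic1, Sham female 1 had the highest value of all 12 libraries for 4 genes and Sham female 2 for 2 genes. AVF female 3 had the lowest value of all 12 libraries for 7 genes. Within sham, Sham male 2 was lowest for 5 genes and Sham male 3 for 3 genes.

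**Figure D3:**
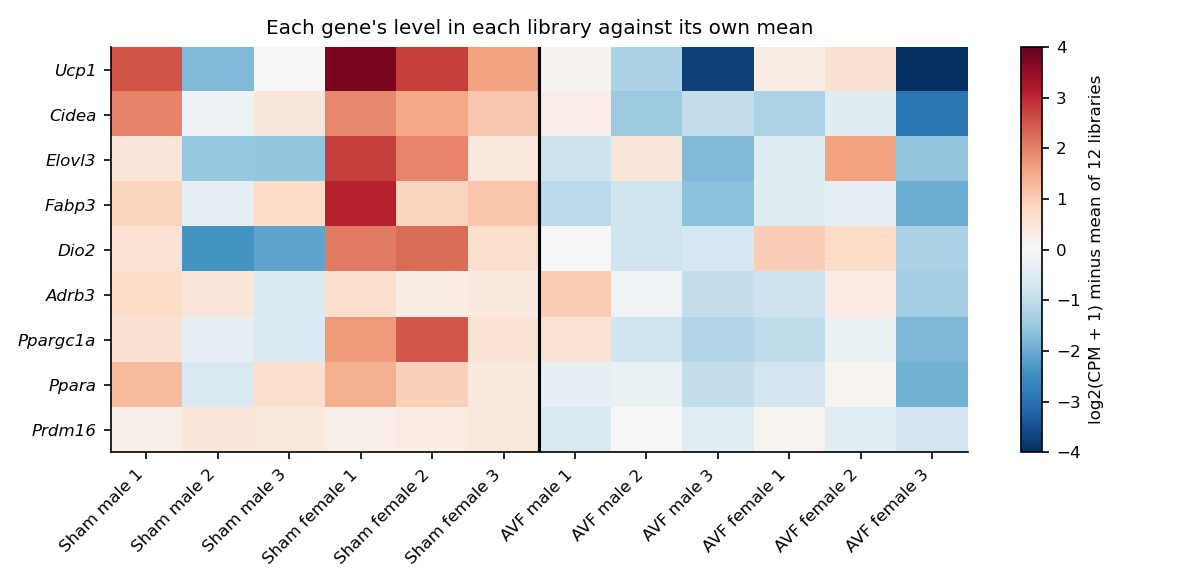
Deviation of each gene in each library from its own mean over the 12 libraries, on the log2(normalized CPM + 1) scale, with sham libraries left of the line and AVF libraries right of it. Sham female 1 and Sham female 2 are red throughout most rows, AVF female 3 is blue in every row, and Prdm16 varies least.

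Across the 6 sham libraries, Pearson's r between Ucp1 and the other members on log2(CPM + 1) ranged from -0.88 for Prdm16 to 0.97 for Cidea, leaving out Zic1, which was near 0. For Cidea in sham, Spearman's rho was 0.83 and r was 0.74 without Sham male 2 and Sham male 3, the libraries farthest from the median of Ucp1. For Prdm16 in sham, rho was -0.94 and r without those libraries was -0.79. Across the 6 AVF libraries r ranged from 0.48 for Prdm16 to 0.94 for Fabp3. For Fabp3 in AVF, rho was 0.94, and r was 0.45 without AVF male 3 and AVF female 3. Leaving out the libraries farthest from the median narrows the range of Ucp1, so a lower r cannot show what the relation rested on. None of the 18 relations had an adjusted p under 0.05 in the exact permutation test over pairings, the lowest being 0.05. Before adjustment, 7 relations in sham and 4 in AVF had p under 0.05 in the exact permutation test. Within a group the points share the normalization of their library.

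Among the 10 genes outside the members whose levels followed Ucp1 most closely over the 12 libraries, by Pearson's r on log2(CPM + 1), were Clstn3, Slc12a7, Pdp2, Dnajc28, Mrpl9, Ddit3, Cox8b, Bpnt1 and Clk4, with r from 0.97 to 0.94. These values are a description, since the genes were picked by this measure and the 12 libraries include both groups. Clstn3, a calsyntenin gene, had r = 0.98 within AVF and 0.98 within sham, and was at 3.05 to 18.9 CPM in AVF and 8.39 to 53.6 in sham. Cox8b, a cytochrome c oxidase subunit of brown fat and muscle, had r = 0.90 within AVF and 0.98 within sham. Of the members, Ppara came closest to Ucp1, with r = 0.92, in place 37 among all tested genes.

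Sex was the other factor of the design. In sham, 9 of the 10 genes had higher fitted levels in female mice, including Zic1, which had at most 7 counts in any library. Most of these genes rose and fell together across the sham libraries, so they are not separate results. None of the 10 was called (adjusted p under 0.05 and at least a 1.5-fold difference in the edgeR fit on 4 groups, which called 0.0452% of 22110 genes). Before adjustment, 3 members had p under 0.05. Dio2 was 2.48 ± 0.82 higher on the log2 scale in sham females (edgeR adjusted p = 0.557), with the 3 females at 118 to 356 CPM, all above the 3 males at 13.4 to 113. Ppargc1a was 1.85 ± 0.63 higher (edgeR adjusted p = 0.572) and Fabp3 was 1.59 ± 0.64 higher (edgeR adjusted p = 0.63). The sham females included Sham female 1, with cardiac genes and Fabp3 at 98.2 CPM, and Sham female 3, with skeletal muscle genes and Fabp3 at 24.2 CPM. The part of muscle in the Fabp3 value was not tested. In AVF, 5 of the 10 genes had higher and 5 lower fitted levels in females, none was called (0.0226% of all genes were), and none had an unadjusted p under 0.05. DESeq2 also called none of the members in either group.

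Within each sex, the difference between AVF and sham could be read with 3 libraries against 3 in a fit that pools the spread of 4 groups, here on the 15907 genes used for AVF against sham. In females, Fabp3 (log2 fold change -3.05 ± 0.71, edgeR adjusted p = 0.038) and Ppargc1a (-2.78 ± 0.67, edgeR adjusted p = 0.041) were called lower, as were 0.66% of all genes. The sham females included the library with cardiac genes (Sham female 1) and the library with skeletal muscle genes (Sham female 3). The part of muscle in these female values was not tested. On the 22110 genes of the comparison of the sexes, the call of Ppargc1a was lost (edgeR adjusted p = 0.051). In males, none of the 9 tested members was called, and 0.0943% of all genes were called lower. The male values were -2.16 ± 1.40 for Ucp1, -1.61 ± 0.71 for Cidea and -1.85 ± 0.68 for Fabp3, with edgeR adjusted p = 0.460, 0.287 and 0.224. In males Dio2 and Elovl3 had positive fold changes of 0.20 ± 0.80 and 0.19 ± 1.57. Prdm16 was about the same in both sexes, at -0.70 ± 0.23 in females and -0.77 ± 0.22 in males. The difference between the sexes was itself tested as an interaction, and no member was called by edgeR or DESeq2 (0% of all genes were called by edgeR). The lowest unadjusted p was that of Ppargc1a, with an interaction of -2.54 ± 0.89 on the log2 scale and edgeR adjusted p = 0.960, the only member with an unadjusted p under 0.05.

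Ucp1 is a gene of brown and beige adipocytes, and Adipoq, which encodes adiponectin, is a gene of all adipocytes. Adipoq was at 264 to 573 CPM in AVF and 271 to 531 in sham, with a log2 fold change of 0.08 ± 0.21 (edgeR adjusted p = 0.830). The log2 ratio of Ucp1 to Adipoq, with 1 CPM added to each gene, was -3.79 ± 2.18 (SD, n = 6) in AVF and -0.78 ± 1.77 (SD, n = 6) in sham. It ran from -6.85 to -1.44 in AVF and from -3.76 to 1.23 in sham, with Sham male 2 and Sham male 3 inside the AVF range. Ucp1 alone had an unadjusted p of 0.015 in the edgeR quasi-likelihood test, beside its adjusted p of 0.079. The difference of -3.02 in the ratio had an unadjusted p = 0.028 in a two-sided exact permutation test. It was no longer under 0.05 when AVF male 3, AVF female 3, Sham male 1, Sham female 1 or Sham female 2 was left out, with exact permutation p from 0.052 to 0.056, or without the 2 AVF libraries with hepatocyte genes (exact permutation p = 0.057).

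**Figure D4:**
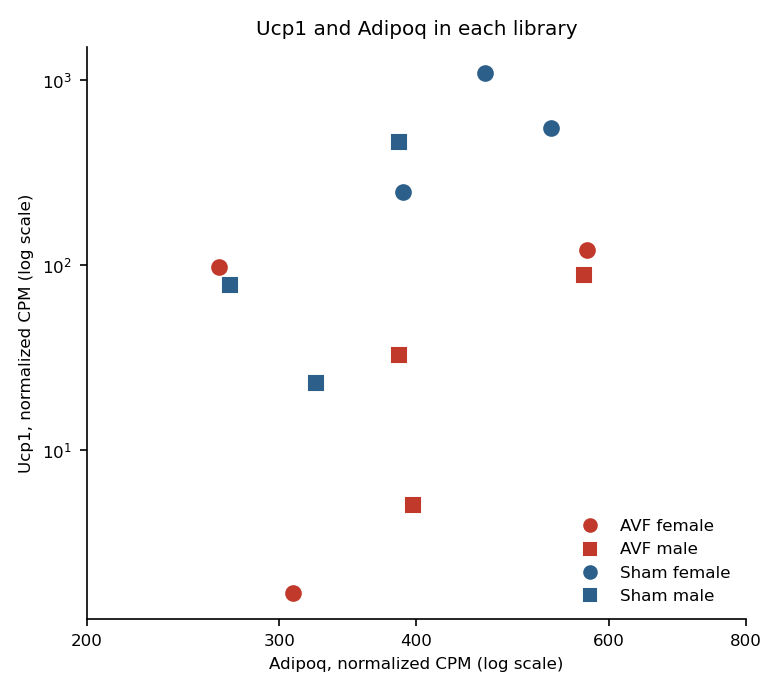
Normalized CPM of Ucp1 against Adipoq in each of the 12 libraries, both on log axes, with circles for female and squares for male mice. Adipoq spans 264 to 573 CPM in both groups together, while Ucp1 spans 1.69 to 1088.

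Genes around these members were read from lists of brown fat functions. Of 16 mitochondrial and uncoupling genes, 8 were called lower and none higher, with a median log2 fold change of -1.08 against -0.01 over all tested genes. Of all tested genes, 1.41% were called lower and 3.37% higher. Cox7a1, a cytochrome c oxidase subunit of brown fat and muscle, was at 1.87 to 6.63 CPM in AVF and 7.44 to 46.5 in sham, with no overlap, and its log2 fold change was -2.82 ± 0.48 (edgeR adjusted p = 0.0033). Coq8a, needed for coenzyme Q synthesis (-1.62 ± 0.29, edgeR adjusted p = 0.0042), Cpt1b, which brings fatty acids into mitochondria (-2.35 ± 0.47, edgeR adjusted p = 0.0079), and Acaa2, a thiolase of fatty acid oxidation (-1.37 ± 0.29, edgeR adjusted p = 0.011), were also called. Some of these genes are expressed in muscle too.

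The relatives of Ucp1 went different ways. Ucp3, found in brown fat and skeletal muscle, was called lower, at 3.37 to 19.9 CPM in AVF and 7.68 to 51.7 in sham (log2 fold change -1.63 ± 0.48, edgeR adjusted p = 0.042). Ucp2, which is expressed in many cell types including macrophages, was at 83.9 to 148 CPM in AVF and 65.2 to 109 in sham, and was higher by less than 2-fold (0.62 ± 0.15, edgeR adjusted p = 0.018). Summed macrophage genes were at 999.7 to 1597 CPM in AVF and 512 to 858 in sham, with no overlap. Of the 6 genes summed, 5 were higher on adjusted p alone and none was called. Cd68, Csf1r and Mrc1 each overlapped between the groups. The part of these macrophage genes in the Ucp2 value was not tested.

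Upstream of the members were 11 genes of adrenergic and thyroid input, with a median of -0.42. Of these, 1 was called lower (1.41% of all tested genes were) and none higher (3.37% were). That gene was Adra1a, an alpha-1 adrenergic receptor, with a log2 fold change of -1.42 ± 0.36 (edgeR adjusted p = 0.024). Adrb1, the beta-1 receptor, was at -1.24 ± 0.45 and did not pass (edgeR adjusted p = 0.084). Among the regulators of the brown fat programme, the 15 tested had a median of -0.36. Of these, 1 was called lower and none higher, beside the same shares of all tested genes. That gene was Rxrg, a retinoid X receptor, at 3.07 to 4.96 CPM in AVF and 5.91 to 9.44 in sham (-1.03 ± 0.17, edgeR adjusted p = 0.0024). On adjusted p alone, 1 regulator passed with a lower level and 2 with higher levels. The higher ones were Zfp516 (0.30 ± 0.08, edgeR adjusted p = 0.027) and Rxra (0.36 ± 0.10, edgeR adjusted p = 0.032). Ebf2, which marks brown fat precursors, was at -0.23 ± 0.17 and did not pass (edgeR adjusted p = 0.378).

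For lipid supply, 2 of 18 genes were called lower (1.41% of all tested genes were) and none higher, with a median of -0.31. Pdk4, a kinase that shifts fuel use from glucose to fat, was at 84.6 to 204 CPM in AVF and 211 to 1045 in sham, without overlap (-1.71 ± 0.39, edgeR adjusted p = 0.015). Acot11, a thioesterase of brown fat, was at -1.45 ± 0.34 (edgeR adjusted p = 0.018). Lpl, lipoprotein lipase, did not pass at -0.28 ± 0.22 (edgeR adjusted p = 0.407).

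Of the secreted and surface genes of brown or beige fat, 13 of 16 were tested, with a median of -0.74. Of these, 3 were called lower (1.41% of all tested genes were) and 1 higher (3.37% were). Kcnk3, a potassium channel of brown adipocytes, was at 36.7 to 72.0 CPM in AVF and 82.6 to 163 in sham, without overlap (-1.14 ± 0.20, edgeR adjusted p = 0.0034). P2rx5, a surface purinergic receptor (-1.32 ± 0.35, edgeR adjusted p = 0.029), and Otop1, a proton channel (-2.50 ± 0.69, edgeR adjusted p = 0.031), were also called lower. Tmem26, a beige fat marker, was called higher (1.81 ± 0.31, edgeR adjusted p = 0.0033) at low levels, 1.07 to 2.79 CPM in AVF and 0.313 to 0.592 in sham. Nrg4, a secreted factor of brown fat, was at -0.95 ± 0.42 and did not pass (edgeR adjusted p = 0.140).

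Of 13 genes of all adipocytes or of white fat, including Adipoq, none was called by edgeR in either direction. On adjusted p alone 1 passed, with a lower level, as did 5.14% of all tested genes. It was Slc2a4 (-0.98 ± 0.29, edgeR adjusted p = 0.042), and Gpd1 (-1.44 ± 0.45) narrowly missed (edgeR adjusted p = 0.0502). Of the 13 genes, 6 had negative fold changes. The median log2 fold change of the 13 was 0.05. The 10 sympathetic neuron genes all had negative fold changes, with a median of -1.11, and none was called. Th, which makes the precursor of noradrenaline, was at 9.31 to 44.8 CPM in AVF and 17.2 to 77.1 in sham (-1.08 ± 0.39, edgeR adjusted p = 0.082). Summed neuron genes were at 256 to 1448 CPM in AVF and 590 to 2461 in sham, and Sham female 1, the library with the most Ucp1, had the lowest sum in sham. Their part in the levels of the thermogenic genes was not tested.

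**Figure D5:**
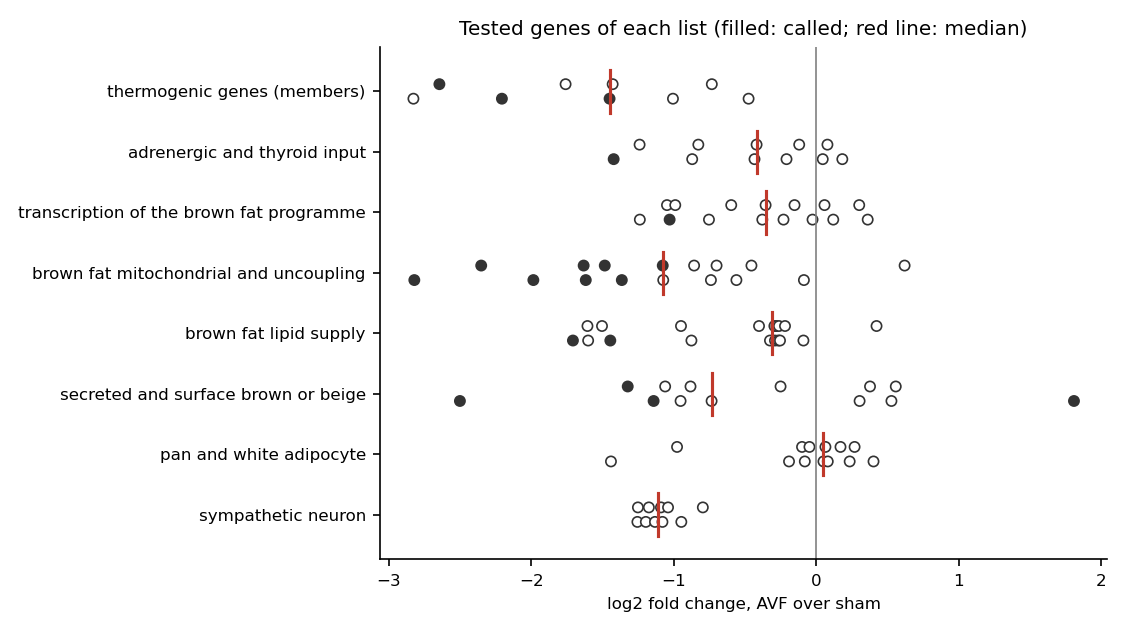
Log2 fold change of AVF over sham for each tested gene of the thermogenic members and of the lists around them, with filled points for called genes and a red line for the list's median. The medians lie at -1.45 for the members, -1.08 for mitochondrial and uncoupling genes, -1.11 for sympathetic neuron genes and 0.05 for genes of all adipocytes and white fat.

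The sequences before the starts of the cyclic AMP responsive members are shown because adrenergic signals reach these genes through cyclic AMP, and Ucp1, Dio2 and Ppargc1a are known targets of that pathway. The table of RefSeq promoters (GRCm38.p6) held 7 of the 10 members. The 250 bases before the start of each were searched for the core of the cyclic AMP response element, TGACG, on both strands (CGTCA on the other), and for the full palindrome TGACGTCA, in which the core occurs on both strands. The core was found in 5 of the 7 members and in 17.8% of all 32544 promoters in the table. The full palindrome was found in Dio2 and in 1.55% of all promoters. Each stretch was placed in GRCm39, the build of the counted genes, by its only exact match, and bases in annotated exons were left out. Capitals mark the core or the palindrome.
Ucp1, plus strand, chr8:84016806-84016888: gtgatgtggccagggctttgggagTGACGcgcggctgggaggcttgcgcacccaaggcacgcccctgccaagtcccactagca
Dio2, minus strand, chr12:90705820-90706062: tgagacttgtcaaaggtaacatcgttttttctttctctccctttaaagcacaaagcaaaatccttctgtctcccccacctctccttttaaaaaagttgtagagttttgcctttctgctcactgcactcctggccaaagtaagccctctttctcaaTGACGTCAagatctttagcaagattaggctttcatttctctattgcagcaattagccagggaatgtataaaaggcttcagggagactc
Ppargc1a, minus strand, chr5:51725069-51725317: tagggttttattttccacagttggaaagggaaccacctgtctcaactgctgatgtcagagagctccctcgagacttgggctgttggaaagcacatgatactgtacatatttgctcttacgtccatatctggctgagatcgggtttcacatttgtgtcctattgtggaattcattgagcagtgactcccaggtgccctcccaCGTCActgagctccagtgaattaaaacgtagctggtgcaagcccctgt
Counted from the RefSeq start, the palindrome begins 95 bases before Dio2, and the core begins 147 bases before Ucp1 and 49 bases before Ppargc1a. The GENCODE annotation also has a Ucp1 transcript that starts further upstream, at position 84016647, so the printed Ucp1 stretch lies inside the annotated gene, between exons. For Fabp3 and Ppara the whole 250 bases searched lie in annotated exons of GENCODE transcripts of those or overlapping genes. A match is a description of these letters and does not show a site in use.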

How the data were processed

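Expected counts per gene were deposited by the authors, made from 101 bp paired-end reads of stranded libraries trimmed with PRINSEQ and Trimmomatic 0.39, aligned with STAR 2.7.7a to GRCm39 (Ensembl 106 annotation) and counted with RSEM 1.3.3. They were not normalized or filtered. Here they were rounded and tested with edgeR 4.0.16 (quasi-likelihood, TMM, Benjamini-Hochberg adjustment) in R, on genes with CPM over 1 in at least 2 libraries. Sexes and the interaction were tested in 1 fit on 4 groups, on genes with over 12 counts in all. DESeq2 1.42.0 and edgeR's exact test were alternatives. Simulated counts were used to test the edgeR quasi-likelihood comparisons, and not the permutation tests, the correlations or the promoter search. Normalized CPM used effective library sizes and 1 CPM was added before logs. Symbols came from the GENCODE M39 annotation. The members and gene lists were chosen with earlier results of these data known. The named genes were the members, Ucp2, Ucp3, each list's first gene, up to 4 called genes per list with the lowest adjusted p, and the 10 genes most like Ucp1. The results of some genes named by this rule are not reported here. Myh6, Zfp516, Rxra, Slc2a4, Gpd1, Cd68, Csf1r and Mrc1 were named after their values were seen. No pair of libraries in a group agreed within sampling noise. The study describes veins from 6 mice in each group, and the labels list 6 libraries in each group without naming the mouse.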

Additional observations from a re-analysis of the deposited data

Results flagged for a closer look

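Within the groups of 6 libraries, 24 sets of values (the members with enough counts, Adipoq, Ucp2 and Ucp3, in AVF and in sham) were searched for a library far from the others, by the gap to the nearest library over the whole range. Of these, 2 were found, both in Sham female 1. Chance would flag about 1 in 20 sets of normally distributed values. The search used CPM without logs, which are skewed for some genes, and the sets share libraries, so the chance rate here is not known. Fabp3 was at 98.2 CPM in Sham female 1, with the next sham library at 24.2. Ucp2 was at 109 CPM there, with the next at 73.8. This is the library with the cardiac genes, and their part in these values was not tested.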

How the results depend on the processing

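The counts of members called are small, so a single member moves them. Against 3 called lower in the main test, edgeR's exact test and DESeq2 each gave 5, adding Ucp1 and Ppargc1a (over all genes 1056 and 1065 were called against 760), and leaving out 1 library at a time gave 2 to 4. Counts by adjusted p alone were 3 to 5 with 1 library left out, against 4. No member was called higher, or between the sexes or in the interaction, under any alternative run. Chosen after seeing the data, the contrast within females of the fit on 4 groups gave 2 by adjusted p (445 of all genes called), and that within males gave 0 lower and 0 by adjusted p (103 of all genes called), with Dio2 and Elovl3 reversed to log2 fold changes of 0.20 and 0.19. Without Sham female 1 and Sham female 3, the libraries with muscle genes, 1 member (Fabp3) was called lower and 2 passed on adjusted p. Over all 15907 genes tested, 95 were called lower in that setting, against 224 in the main test. Each of these compares fewer libraries. The other alternatives (another size factor, library totals alone, another filter, sex as a covariate, ribosomal genes left out, a robust fit) gave 3 or 4 called lower, and leaving out the 2 AVF libraries with hepatocyte genes gave 2.

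The same-numbered mice of a sex did not deviate together in all pairs (correlations of -0.22 to 0.28, and 2 of 6 AVF libraries lay closest to their own number), so the numbers were not read as pairs. With the number and sex as a replicate block, 3 members were called lower and 4 passed on adjusted p, as without it, and the log2 ratio of Ucp1 to Adipoq differed by -3.02 (exact sign-flip permutation p = 0.0625). That ratio differed by -3.47 without the 2 AVF libraries with hepatocyte genes, and by -3.61 to -2.41 with 1 library left out. Over all tested genes, leaving out 1 library gave from 469 (without Sham female 2) to 1023 calls (without AVF female 1), and leaving out the 2 AVF libraries gave 475. Depth limited what could be read of Zic1, at most 7 counts in any library.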
